A study of Mus musculus with 4 samples.

Results

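The genes described here encode the chromosome and recombination machinery of meiosis. The set has 30 named genes, with Stra8 and Rec8 left out by definition, and every probe set that the array annotation assigned to 1 of them alone was taken. All 30 genes had such a probe set, 37 probe sets in all, out of 18193 genes and 45037 probe sets on the array. They were read in gonocytes, the male germ cells of the newborn testis, from mice at 2 days post partum, enriched with antibody-coated magnetic beads for the surface protein THY1. The cells were cultured for 8 h with no serum, growth factors or feeder cells, in ethanol (vehicle) or in 100 nM retinoic acid (RA). Each treatment had 2 samples, numbered 1 and 2 in the labels, and each sample was hybridised to 1 Affymetrix mouse expression array. Neither the strain of the mice nor any genetic change is given in the labels. The labels also leave unsaid what a number stands for and whether separate animals or cultures were used. The p-values therefore reflect the spread among these 4 samples and nothing wider, and that spread may be technical.

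In meiosis homologous chromosomes pair and exchange DNA. Each chromosome is folded along a protein axis built on cohesins, the axes of homologues are joined by the synaptonemal complex, and programmed double-strand breaks are repaired from the homologue by a set of recombination proteins. In the mouse testis the first cells enter meiosis only after the first week of life, so gonocytes are not meiotic cells, and RA is the signal that later induces Stra8 and meiotic entry.

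The deposited values are probe set intensities on a linear scale, called signals below. The trimmed mean signal was the same on the 4 arrays, 125 with 2% trimmed at each end, and with 4 arrays the precision is limited throughout. The germ cell identity genes Ddx4 and Dazl, which encode an RNA helicase and an RNA-binding protein, had signals of 1121 to 1305 and of 1296 to 1606. Thy1, the gene of the protein used for the enrichment, stood at 329 and 168 on the vehicle arrays and at 265 and 141 on the RA arrays. Genes of mast cells, macrophages, Leydig, Sertoli and stromal cells also had signals above the filter, and their summed levels are given beside the results. Over the 4 arrays the stromal genes Acta2 and Col1a1 had signals of 2059 to 3339 and of 1513 to 2264, and the mast cell gene Mcpt2 of 886 to 2673. In RNA from whole samples, fewer cells of a type and less RNA per cell cannot be told apart.

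Most of the meiotic genes had a clear signal in the enriched samples that had received no RA. On the vehicle arrays the mean signal was at least 100 for 22 of the 30 genes and at least 300 for 12, and over the 30 it ran from 4.32 (Prdm9) to 996 (Tex15). The share of all genes at these levels was not counted. A gene was counted as above the filter on low values when its mean log2(signal + 5) was at or past the 40th percentile of all probe sets, a signal of about 15.5. Of the 30 genes 28 were above it, beside 71.5% of all genes on the array. Being above it does not by itself show expression. Of 6 spermatid genes 3 were above it too, Tnp1, Spaca1 and Prm1, with mean vehicle signals of 51.5, 50.9 and 41.1. Those of Hormad2, Majin and Msh4 in the set were 35.0, 35.4 and 41.0. Signals of different probe sets depend on their probes and are not set against each other as amounts of RNA.

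**Figure D1:**
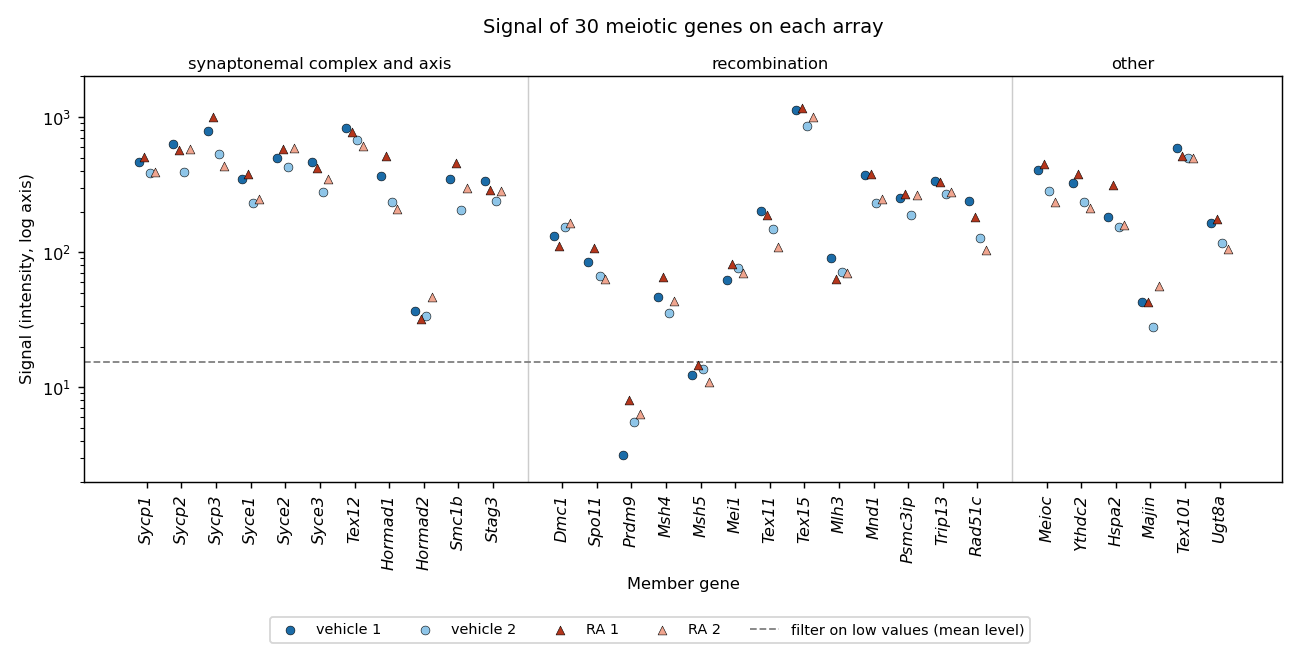
Signal of each of the 30 meiotic genes (one column per gene, grouped by role) on the 4 arrays, on a logarithmic axis, with circles for vehicle, triangles for RA and paler symbols for samples numbered 2. The dashed line is the filter level of about 15.5, which Prdm9 and Msh5 did not reach, and for most genes the paler symbols lie below the darker ones.

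All 11 genes of the synaptonemal complex and the chromosome axis were above the filter. Sycp3, a component of the axial and lateral elements, had vehicle signals of 794 and 533, Sycp2, its partner there, of 629 and 394, and Sycp1, the transverse filament that bridges the axes, of 467 and 384. The central element genes Syce1, Syce2, Syce3 and Tex12 had vehicle signals between 233 and 836. Hormad1, an axis protein that monitors synapsis, had vehicle signals of 369 and 237. The meiotic cohesin genes Smc1b and Stag3, whose proteins work with REC8 on the axis, had 346 and 207 and 336 and 239. Hormad2, a relative of Hormad1, was the dimmest of these probe sets at 36.6 and 33.5.

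The recombination genes were more uneven, and 11 of 13 were above the filter. Spo11, the enzyme that makes the double-strand breaks, had vehicle signals of 84.7 and 67.0, and Mei1, which is needed for break formation, had 62.0 and 75.9. Dmc1, the recombinase that searches for the homologue in meiosis, had 132 and 153, and its accessory factors Mnd1 and Psmc3ip (HOP2) had 371 and 233 and 252 and 189. Tex15, which is needed for loading recombinases and also acts in transposon silencing, had 1132 and 860. Prdm9, the histone methyltransferase that marks sites of breaks, was close to the background at 3.14 and 5.50. Msh5, the partner of the crossover factor Msh4, was below the filter at 12.3 and 13.7, while Msh4 itself had 46.4 and 35.6. The remaining 6 genes of the set were all above the filter. Meioc and Ythdc2, which encode partners in an RNA-binding complex that keeps germ cells in meiotic prophase, had 404 and 283 and 323 and 234.

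Promoter sequence is a feature that the choice of genes did not use. RefSeq promoter windows of GRCm38.p6, from 250 bases before to 50 bases after a transcription start, were at hand for 25 of the 30 genes, and some genes have more than 1 window. An E-box with the letters CACGTG, the site of basic helix-loop-helix factors such as MAX and MGA, was found in 6 of the 25, beside 10.2% of the 14452 array genes with a window and 8.09% of all 27025 genes. Both strands were searched. The letters TTCCCGC, a site type of the E2F family, were found in 10 of the 25, beside 7.95% of array genes and 5.29% of all genes. These motifs do not overlap each other in letters. Both were present in 5 genes, 20% of the 25, beside 0.927% of array genes. MGA and E2F family proteins are known parts of a complex that silences germ line genes in other cells. A match is a description of the letters and not a site shown to be bound here. The promoters of those 5 genes, all of them axis or synaptonemal complex genes, are printed from 250 bases before to 10 bases after the start, with the 2 motifs in capitals (GCGGGAA is TTCCCGC read on the other strand):
Sycp3 promoter, chr10:88459337-88459596, plus strand: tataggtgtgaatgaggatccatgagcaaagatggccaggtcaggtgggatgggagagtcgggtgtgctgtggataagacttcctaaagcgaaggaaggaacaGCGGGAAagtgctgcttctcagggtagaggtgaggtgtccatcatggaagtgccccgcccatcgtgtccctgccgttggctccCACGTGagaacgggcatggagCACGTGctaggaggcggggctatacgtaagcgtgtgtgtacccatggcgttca
Hormad1 promoter, chr3:95559427-95559686, plus strand: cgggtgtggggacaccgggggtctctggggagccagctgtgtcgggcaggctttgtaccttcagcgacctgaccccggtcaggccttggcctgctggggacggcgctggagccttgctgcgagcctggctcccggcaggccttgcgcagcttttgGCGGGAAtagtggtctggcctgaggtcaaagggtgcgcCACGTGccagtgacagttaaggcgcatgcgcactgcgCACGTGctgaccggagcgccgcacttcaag
Tex12 promoter, chr9:50561259-50561518, minus strand: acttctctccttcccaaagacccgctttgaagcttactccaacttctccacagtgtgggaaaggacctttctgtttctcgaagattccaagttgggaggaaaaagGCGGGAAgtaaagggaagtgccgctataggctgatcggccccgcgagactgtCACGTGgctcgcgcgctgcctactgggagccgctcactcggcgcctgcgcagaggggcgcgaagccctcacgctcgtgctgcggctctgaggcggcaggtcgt
Stag3 promoter, chr5:138280259-138280518, plus strand: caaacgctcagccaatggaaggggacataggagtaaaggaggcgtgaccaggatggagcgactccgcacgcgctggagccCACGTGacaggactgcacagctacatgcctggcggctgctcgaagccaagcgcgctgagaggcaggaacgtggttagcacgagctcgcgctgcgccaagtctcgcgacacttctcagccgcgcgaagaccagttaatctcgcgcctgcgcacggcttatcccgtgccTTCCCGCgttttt
Syce2 promoter, chr8:84872008-84872267, plus strand: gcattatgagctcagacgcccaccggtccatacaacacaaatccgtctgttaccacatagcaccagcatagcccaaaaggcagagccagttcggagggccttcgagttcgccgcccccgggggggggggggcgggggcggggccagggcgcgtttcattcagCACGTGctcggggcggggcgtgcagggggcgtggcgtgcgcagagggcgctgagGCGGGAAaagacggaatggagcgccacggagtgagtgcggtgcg

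In Sycp3 and Hormad1 a pair of E-boxes lies close to the start, beginning 64 and 43 bases before it in Sycp3 and 57 and 20 bases before it in Hormad1, with the TTCCCGC match farther upstream. In Stag3 the order is the reverse, with the E-box 170 bases before the start and the other match 3 bases before it. Pairs of AGGTCA in the same direction spaced by 1, 2 or 5 bases, the forms of response element that RA receptors bind, were found in 0 of the 25 windows, and they are rare in all promoters (0.0481%, 0.0074% and 0.0111% of the 27025 genes). No match says only that these letters are not in this window. Single AGGTCA letters, a search added after the data were seen, were found in 4 of the 25 genes, beside 16.5% of array genes. CpG dinucleotides stood at a median of 0.713 of the number expected from base composition, beside 0.70 in array genes.

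The comparison of RA with vehicle asked whether 8 h of RA altered the transcripts of the meiotic machinery. No meiotic gene of the set passed limma's test, and the differences were small and of both signs. The median difference in log2(signal + 5) was 0.0756 over the 28 genes above the filter, with 20 positive and 8 negative, beside a median of 0.0147 and 6877 positive of 13011 for all genes above the filter. None of the 28 had an unadjusted p under 0.05 in limma, where 1.41% of all genes did in the higher and 1.3% in the lower direction, and 2.75% of all probe sets in either. After adjustment by Benjamini and Hochberg's method across all 27022 tested probe sets, limma called 0 of them (0%) in either direction. The RA signals were both higher than the vehicle signals in 2 of the 28 genes (14.1% of all genes) and both lower in 1 (12.6% of all genes). For a single gene, permuting 2 and 2 arrays gives an exact two-sided p of 0.333 at the least.

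The axis and synaptonemal complex genes had a median difference of 0.109, with 10 of 11 positive. Syce2, of the central element, stood at 496 and 430 in vehicle and at 585 and 596 in RA. Its groups did not overlap, and its difference was 0.35 ± 0.19 (SE, 2 arrays per group, as for all differences here). It had the smallest p among the 28, which after limma's adjustment was 1. Smc1b had the largest difference of the 28, 0.46 ± 0.31, from vehicle signals of 346 and 207 and RA signals of 460 and 298. Its groups overlapped, since vehicle sample 1 lay above RA sample 2. Sycp3 had RA signals of 999 and 436 on either side of both vehicle signals, and a difference of 0.02 ± 0.38. Sycp1, at 506 and 389 with RA, had a difference of 0.07 ± 0.22, with a 95% interval from −0.44 to 0.57. Hormad1, at 519 and 210 with RA, had 0.16 ± 0.41, again with RA values on both sides of the vehicle values.

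Among the recombination genes the median difference was 0.0678, with 7 of 11 positive. Psmc3ip had RA signals of 270 and 267, above both vehicle signals, a difference of 0.29 ± 0.22, and its other probe set gave 0.06. Mlh3, a mismatch repair protein of crossover resolution, had vehicle signals of 90.8 and 71.9 and RA signals of 63.2 and 70.2, and was the gene whose RA values both lay below, at −0.26 ± 0.27. Dmc1 had RA signals of 111 and 164, a difference of −0.07 ± 0.26 on one probe set and 0.05 on the other. Rad51c, which also acts in DNA repair outside meiosis, had the lowest difference, −0.33 ± 0.36, and 0.08 on its second probe set, so its probe sets differed in sign. Spo11 stood at 0.12 ± 0.32 and Tex11, an X-linked factor of crossover formation, at −0.26 ± 0.31. Trip13, the ATPase that removes HORMAD proteins from axes, gave 0.004 for the brightest of its probe sets, with −0.10 and 0.07 for the others.

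The remaining genes had a median difference of 0.0179. Majin, which ties telomeres to the nuclear membrane, had RA signals of 42.5 and 56.4 against 42.7 and 28.1 and a difference of 0.44 ± 0.32, and Hspa2, a chaperone of spermatocytes, had 313 and 159 against 181 and 153 and a difference of 0.41 ± 0.32. In both genes 1 of the 2 RA samples lay within the vehicle range. Meioc and Ythdc2 stood at −0.06 ± 0.33 and 0.05 ± 0.30, Tex101, a surface protein of germ cells, at −0.10 ± 0.19, and Ugt8a, an enzyme of galactolipid synthesis, at −0.01 ± 0.31. The test does not show that these genes did not respond. The 95% intervals of the 28 genes reached at most 2.28-fold higher (Majin) and 2.26-fold lower (Rad51c) with RA, in signal + 5. Each interval is for 1 gene, so together they do not bound the whole set, and Prdm9 and Msh5 have none. The scale also understates differences of dim genes such as Majin. For scale, Rec8 went from 68.6 and 29.96 to 166 and 141 and Stra8 from 188 and 53.3 to 783 and 1477 on the same arrays, differences of 1.64 ± 0.37 and 3.35 ± 0.53, and neither passed after limma's adjustment (adjusted p = 1 and 0.39). The ratio of 3' to 5' signal of the control transcripts Actb and Gapdh was higher on both RA arrays, by 0.35 each on the log2 scale, and the ratios of Tfrc and Pcx differed by 0.18 and −0.11. Mast cell markers had summed signals of 2819 and 5907 in vehicle and 1782 and 4399 in RA. They were lower with RA in 5 of 6, with Mcpt1 at −2.26 ± 0.24. Macrophage and leukocyte markers were lower in 4 of 6, with sums of 961 and 1931 in vehicle and 733 and 1639 in RA. Leydig markers were lower in 3 of 4, with sums of 1374 and 2495 in vehicle and 1509 and 1978 in RA. Germ cell markers were lower with RA in 10 of 12 (6134 of 13011 for all genes) and higher in 2, with a median of −0.16. In 4 of these germ cell markers (33.3%) both RA signals lay below both vehicle signals, beside 12.6% of all genes. These were Zbtb16 (−1.45 ± 0.33), Ret (−1.004 ± 0.19), Lin28a (−0.47 ± 0.19) and Dazl (−0.196 ± 0.22). Sertoli markers were higher in 3 of 6 and lower in 3, with Wt1 at 0.56 ± 0.202. Their sums were 3266 and 4063 in vehicle and 3352 and 4471 in RA. Stromal and peritubular markers were higher in 5 of 6, with Dpt lower at −1.23 ± 0.30. Their sums were 5493 and 7157 in vehicle and 6096 and 8092 in RA. Endothelial markers were higher in 6 of 6. None of these markers passed after limma's adjustment. The part of these cell types in the small differences of the meiotic genes was not tested.

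The same comparison was read within each number. Within the samples numbered 1, RA was higher than vehicle in 16 of the 28 genes, with a median of 0.0689, and within those numbered 2 in 16, with a median of 0.0485. RA was higher in both numbers in 9 genes (32.1%) and lower in both in 5 (17.9%), beside 28.4% and 24.9% of all genes, so these shares were near those of the whole array. Smc1b was among those higher in both, at 0.41 and 0.51. Hormad1 was 0.49 higher with RA in number 1 and stood at −0.17 in number 2, and Majin stood at −0.01 and 0.89. These within-number values come from 1 array for each condition and have no test. The sign of the median over the 28 genes rested on which arrays were used. It was 0.279 when vehicle replicate 1 was left out and 0.255 when RA replicate 2 was, but −0.158 when vehicle replicate 2 was left out and −0.115 when RA replicate 1 was.

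**Figure D2:**
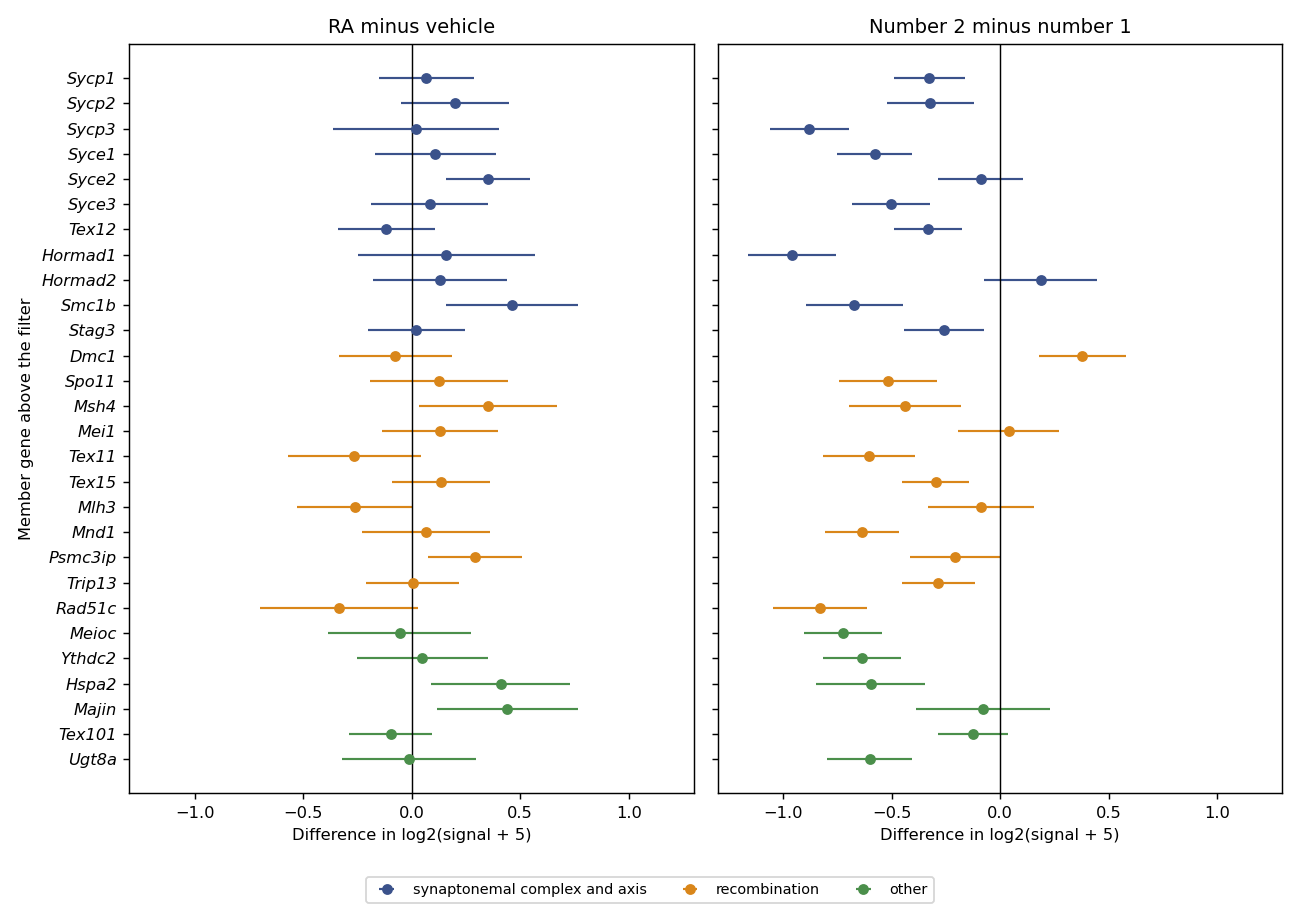
Difference in log2(signal + 5) of the 28 genes above the filter for RA minus vehicle (left) and for the samples numbered 2 minus those numbered 1 (right), with points for the estimate and bars for 1 standard error. On the left 22 of the 28 points lie within 1 standard error of 0. On the right 25 of 28 lie below 0, beside 7362 of all 13011 genes above the filter.

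The larger difference in the meiotic genes ran between the numbers. In 20 of the 28 genes (71.4%) both samples numbered 2, vehicle and RA, lay below both samples numbered 1, beside 30.5% of all genes, and in 1 gene, Dmc1, they lay above, beside 21.4% of all genes. The median difference, number 2 minus number 1, was −0.38 over the 28 genes and −0.06 over all genes above the filter. By role the medians were −0.33 for the axis and synaptonemal complex genes, −0.30 for the recombination genes and −0.598 for the remaining 6. An unadjusted p under 0.05 in limma was reached by 13 of the 28 in the lower direction, beside 10.8% of all genes, and by 0 in the higher direction, beside 8% of all genes. After adjustment over all probe sets limma called 109 probe sets higher (0.403%) and 48 lower (0.178%) in number 2, and none of the 28 was among them (0.73% of all genes were). Of all probe sets 18.3% had an unadjusted p under 0.05. With array medians made equal those calls became 231 higher and 200 lower, and 2 genes of the set, Sycp3 and Hormad1, were lower past the threshold (limma, smallest adjusted p = 0.0397), beside 1.83% of all genes called in either direction. With treatment as a term in the fit, which leaves 1 residual degree of freedom, 11 genes of the set were called lower, Sycp3, Syce1, Hormad1, Smc1b, Tex11, Mnd1, Rad51c, Meioc, Ythdc2, Hspa2 and Ugt8a, while that fit called 11.4% of all genes in either direction. Without vehicle replicate 1 the calls were Sycp3, Hormad1 and Hspa2, where 3.97% of all genes were called in either direction. Without vehicle replicate 2 they were Sycp3, Hormad1 and Meioc, where 5.99% of all genes were called.

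Hormad1 and Sycp3 had the largest differences of the set. Hormad1 had signals of 369 and 519 in the samples numbered 1 and of 237 and 210 in those numbered 2, and Sycp3 had 794 and 999 against 533 and 436. In both genes the samples numbered 2 were the lower ones in vehicle and in RA. The levels were 1.94-fold and 1.84-fold higher in number 1 (log2 difference −0.96 ± 0.20 and −0.88 ± 0.18, limma, adjusted p = 0.0674 each). Within vehicle the difference by number was −0.63 for Hormad1 and −0.57 for Sycp3, and within RA it was −1.29 and −1.19. Their promoters are the 2 with a pair of E-boxes printed above. The other genes that hold both motifs had smaller differences, −0.33 for Tex12, −0.26 for Stag3 and −0.09 for Syce2, so the motifs did not go with 1 size of difference.

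The other genes of the axis and complex ranged from −0.67 to 0.19. Smc1b had 346 and 460 against 207 and 298 (−0.67 ± 0.22), Syce1 347 and 378 against 233 and 249 (−0.58 ± 0.17) and Syce3 465 and 423 against 280 and 346 (−0.50 ± 0.18). Sycp1 at −0.33 ± 0.16 and Stag3 at −0.26 ± 0.18 also had groups that did not overlap. Sycp2 and Syce2 had groups that overlapped, at −0.32 and −0.09. In Sycp2 RA sample 2 was slightly brighter than RA sample 1, and in Syce2 it lay above both samples numbered 1. Hormad2 stood at 0.19 ± 0.26, opposite in sign to Hormad1, from signals of 32.01 to 46.8.

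Among the recombination genes Rad51c had 237 and 181 against 127 and 103, 1.77-fold higher in number 1 (−0.83 ± 0.22), and its second probe set gave −0.82. Mnd1 had 371 and 382 against 233 and 249 (−0.64 ± 0.17), and Tex11 had 202 and 189 against 148 and 109 (−0.60 ± 0.21). Spo11 had 84.7 and 107 against 67.0 and 63.3 (−0.52 ± 0.23). Dmc1 ran the other way, with 132 and 111 in number 1 and 153 and 164 in number 2, a difference of 0.38 ± 0.20 (limma, adjusted p = 0.351). Its second probe set gave 0.29, also with groups that did not overlap. Mnd1 and Psmc3ip, whose proteins form a complex that assists DMC1, stood at −0.64 and −0.21. Mei1 and Mlh3 were near 0, at 0.04 and −0.09, and Tex15, Trip13 and Msh4 lay between −0.44 and −0.28 with groups apart. The other probe sets of Trip13 gave −0.05 and −0.10, with groups that overlapped.

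Of the remaining genes, Meioc had 404 and 453 against 283 and 233 (−0.72 ± 0.18) and its partner Ythdc2 had 323 and 379 against 234 and 213 (−0.64 ± 0.18). Both were lower in number 2 in either treatment. Ugt8a had 163 and 177 against 116 and 105 (−0.60 ± 0.20), and Hspa2 had 181 and 313 against 153 and 159 (−0.60 ± 0.25), where most of the difference came from RA sample 1. Tex101 had groups that were barely apart, at 586 and 513 against 502 and 501, and Majin stood at −0.08 ± 0.31. Prdm9 and Msh5 were too dim for the test, with differences of 0.08 and −0.09.

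The difference by number was also read in vehicle and in RA taken separately. This re-reads the same 4 arrays and is not separate support. The 20 genes with groups apart are lower in number 2 in both treatments by definition. Same-numbered samples also deviated together over all genes (r = 0.555). Within vehicle 26 of the 28 genes were lower in sample 2, with a median of −0.42, beside 7450 of 13011 and −0.06 for all genes. Within RA 22 were, with a median of −0.36, beside 6988 of 13011 and −0.04 for all genes. In 21 genes (75%) both held, beside 38.8% of all genes, and in 1 gene, Dmc1, both samples numbered 2 were higher than their partners, beside 27.8% of all genes. The difference was at least 1.5-fold in 10 genes, a count for which no share of all genes was taken. With 1 array left out the median stayed negative, from −0.501 to −0.335.

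**Figure D3:**
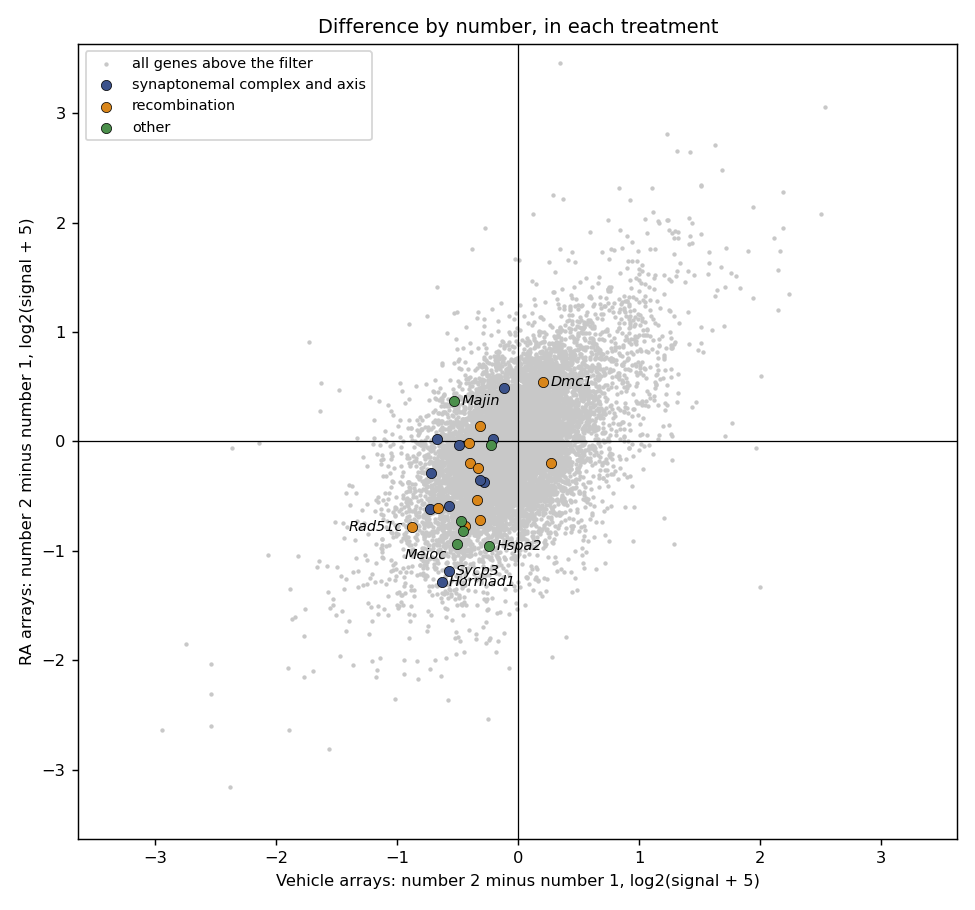
Difference between the sample numbered 2 and the sample numbered 1 in log2(signal + 5), with vehicle on the horizontal and RA on the vertical axis, for the 28 meiotic genes (coloured by role) over all 13011 genes above the filter (grey). Of the 28 genes 21 lie in the lower left, where both differences are negative, and Dmc1 is the one in the upper right.

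Other genes of meiosis and of its repair pathways, were read from a list of 50 with none of the 30 in it. A probe set of their own was found for 35, of which 34 were above the filter. For RA against vehicle their median was 0.0308, with none at an unadjusted p under 0.05 in limma and with groups apart in 5 higher (14.7%) and 3 lower (8.82%), beside 14.1% and 12.6% of all genes. By number 30 of 34 were negative, the median was −0.26, and both samples numbered 2 lay below both numbered 1 in 22 (64.7%, beside 30.5% of all genes) and above in 0. An unadjusted p under 0.05 was reached by 6 of the 34 (17.6%, beside 10.8% of all genes), Mei4, Hsf2bp, Atr, Sun1, Mre11a and Brca2, all with lower signals in number 2. Mei4, a break formation factor, had 29.8 and 34.0 against 16.9 and 13.4 (−0.88 ± 0.26), and Hsf2bp, which binds BRCA2 in spermatocytes, had 160 and 206 against 88.7 and 126 (−0.75 ± 0.23). Atr, a checkpoint kinase that also acts in dividing cells, stood at −0.52 ± 0.17. None passed adjustment over all probe sets (limma, smallest adjusted p = 0.128).

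Markers of cell types also differed between the numbers, and the meiotic genes moved with some of them. Germ cell markers were lower in 9 of 12, beside 7362 of all 13011 genes, with a median of −0.20. Their summed signal was 9549 and 8654 in number 1 and 9293 and 8963 in number 2. These sums depend on Sall4, the brightest of the list, which had 2268 and 2311 in number 1 and 2530 and 3776 in number 2. Its direction was opposite to that of the 9 lower markers. Ddx4 and Dazl stood at −0.12 ± 0.15 and −0.11 ± 0.16, and Thy1 at −0.92 ± 0.20. Dppa3, a gene of primordial germ cells, had 40.3 and 48.3 against 12.6 and 7.96 and passed the test (−1.70 ± 0.27, limma, adjusted p = 0.0343), while Sall4 and Gfra1, of undifferentiated germ cells, were on the higher side at 0.43 ± 0.19 and 0.21 ± 0.16. All 6 macrophage and leukocyte markers were higher in number 2 with groups apart, beside 21.4% of all genes, and their median was 1.004. Their summed signal was 961 and 733 in number 1 and 1931 and 1639 in number 2. The 6 mast cell markers were positive too, with a median of 1.09 and summed signals of 2819 and 1782 against 5907 and 4399, and Cpa3 and Mcpt2 among them passed the test. Kit, on that list, is also a gene of differentiating spermatogonia. Leydig markers were positive in 4 of 4 (summed signal 1374 and 1509 against 2495 and 1978), though within RA 2 of them were lower in sample 2. Sertoli markers were positive in 4 of 6 (3266 and 3352 against 4063 and 4471). Much of that sum was Clu, at 1744 and 1672 against 2319 and 2666. Sox9 and Wt1 were negative, at −0.14 ± 0.20 and −0.19 ± 0.25. Stromal and peritubular markers were positive in 5 of 6 (5493 and 6096 against 7157 and 8092), with Myh11 negative at −0.36 ± 0.20. Over all genes 5649 of 13011 were positive. Of the Leydig genes Cyp11a1, the first enzyme of steroid synthesis, passed the test (0.85 ± 0.15, limma, adjusted p = 0.0471). Endothelial markers were split, with 3 of 6 positive and summed signals of 247 and 280 against 222 and 330. No listed marker was under a signal of 5 on all 4 arrays, though Amh and Fshr of the Sertoli list and Acrv1, Prm2 and Tnp2 of the spermatid list were below the filter. The spermatid genes had a summed signal of 124 to 176. The 3' to 5' ratio differed by number by 0.09 for Actb and 0.01 for Gapdh on the log2 scale. For Tfrc it differed by −0.44, at 11.5 and 14.7 in number 1 and 9.57 and 9.59 in number 2. For Pcx it differed by −0.66, at 31.9 and 13.4 in number 1 and 9.12 and 18.6 in number 2, with groups that overlapped. The part of these cell types and ratios in the lower signals of the meiotic genes was not tested.

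**Figure D4:**
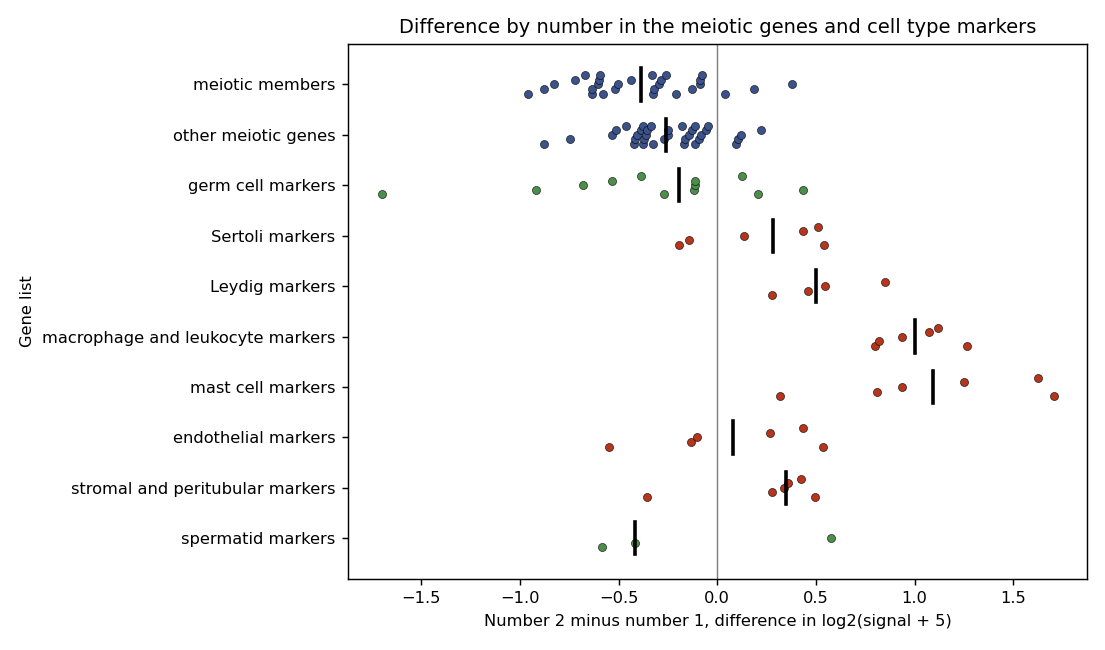
Difference between samples numbered 2 and samples numbered 1 in log2(signal + 5), with one point per gene above the filter and a black bar at the median of each list (blue for meiotic genes, green for germ cell and spermatid markers, red for markers of other cells). The median is −0.38 for the meiotic genes, −0.20 for germ cell markers, 1.004 for macrophage and leukocyte markers and 1.09 for mast cell markers.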

How the data were processed

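Expression was measured on Affymetrix Mouse Genome 430 2.0 arrays from 75 ng of total RNA amplified with the NuGEN Ovation kit, per the labels' protocols, which name GCOS 1.2 for image quantification. The deposited value is a linear intensity for each probe set on each array. The sources used here do not give how probes were summarised or arrays scaled. Amplification from the 3' end can lower signals of probe sets far from it.

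The 64 control probe sets were left out. Symbols came from the platform annotation, updated by Entrez ID to GRCm38.p6, and a gene was read from its brightest probe set. Values were taken as log2(intensity + 5), which understates differences of dim genes. Groups were compared with limma 3.58.1 (R 4.3.3, moderated variances with an intensity trend, two-sided) on the 27022 probe sets above the 40th percentile, without a block. The 2 residual degrees of freedom were joined by 5.81 prior ones for RA and 7.82 for the numbers. The same fit, tested on simulated data for RA against vehicle with 45037 probe sets, called 11.2% of seeded log2 differences of 1 and 88.8% of those of 2. The simulated arrays had independent noise, without the shared deviation of same-numbered samples, so these shares need not hold for the real arrays. On the real arrays Stra8, with a difference of 3.35, was not called. Alternatives covered scaling, pseudocount, filter, variance model, probe set choice, a block and leaving out each array. All members of the set are named, as the rule for named genes states, with other meiotic genes named at an unadjusted p under 0.05. The members and lists were chosen with earlier results of these data known. Figures were drawn with matplotlib 3.10.9.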

Additional observations from a re-analysis of the deposited data

How the results depend on the processing

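By number, the median of the meiotic genes (−0.38) was negative under every alternative run. It was −0.43 with quantile normalization, −0.44 with equal array medians, −0.33 with a pseudocount of 20, −0.33 without the filter, −0.503 with the filter at the 60th percentile and −0.33 with each gene's probe sets averaged, and ran from −0.501 to −0.335 with 1 array left out. With 1 array left out the groups were apart, number 2 lower, in 20 to 24 genes (40.6% to 45.99% of all genes) and, number 2 higher, in 1 to 4 (29.2% to 35.8%), since 1 group then holds a single array. The 157 probe sets called by number became 431 with equal medians, 0 without the filter, 91 with the stricter filter, 40 without the intensity trend, 3007 with treatment as a term and 172 to 1463 with 1 array left out, and those calls rest on few degrees of freedom. Equal medians moved the median of all genes to 0.10 for RA and −0.11 by number.

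For RA, genes of the set with groups apart (2 higher, 1 lower) became 4 and 0 with equal medians (21.5% and 7.4% of all genes, from 14.1% and 12.6%), 1 and 2 without probe sets marked s or x and 1 and 1 with probe sets averaged, and 0 were lower with cyclic loess. With 1 array left out they ran from 3 to 16 higher (24.8% to 38.8% of all genes) and from 1 to 11 lower (26.01% to 35.1%), the median from −0.158 to 0.279, and probe sets called from 0 to 152, with sign and counts set by which array was missing. The cause was not tested. With the replicate number as a block limma called 543 probe sets and none of the meiotic genes, beside 2.14% of all genes. In that fit 2 of the 28 had an unadjusted p under 0.05 in the higher direction, beside 4.5% of all genes. Same-numbered samples deviated together (r = 0.555 over 13011 genes), but only 2 pairs exist and the labels give the number no meaning.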
